A study of Triticum turgidum subsp. durum with 96 samples.

Results

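Small RNA was compared between the flag leaves of Yawa, a durum wheat genotype labelled as tolerant to water deficit stress, and Tjilkuri, a genotype labelled as sensitive. The comparison used every flag leaf library of these genotypes, 12 of Yawa and 12 of Tjilkuri, which is 24 of the 96 libraries of the series. In each genotype 6 plants were kept at field capacity (control group, CG) and 6 were held at a reduced soil water content from the booting stage (water deficit stress group, WG). Each group held 3 plants of season 1 and 3 of season 2, and a library is named here by genotype, treatment, season and letter, such as Yawa WG 2c. The developing head of each of these plants was sequenced as well. The seed of both genotypes came from 1 breeding program, and the labels number every plant, so the replicates are separate plants. Each genotype is a single variety, so tolerance cannot be told apart from any other difference between these 2 varieties.

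MicroRNAs (miRNAs) are small RNAs cut from a folded precursor, the hairpin, and in plants they direct the cleavage or the silencing of messenger RNAs that match them closely. The flag leaf is the last leaf below the wheat head and feeds the filling grain. Several old miRNA families guide plant nutrition and organ growth: miR395 acts on sulfate assimilation, miR399 and miR827 on phosphate balance, miR397, miR398, miR408 and miR528 on copper proteins, miR156 on SPL transcription factors that time development, and miR396 on growth-regulating factors (GRFs) of cell division.

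Depth ran from 2.70 M to 10.22 M small RNA reads in the Yawa libraries (M, mega) and from 2.07 M to 19.47 M in those of Tjilkuri. The two-sided permutation p for the difference in mean depth was 0.43. A conserved miRNA is given in RPM, its reads scaled to 1 M small RNA reads of the library, for 110 listed sequences. A candidate hairpin is given in log2 CPM as deposited, for hairpins without a known mature miRNA, 47 on the A genome of the reference, 59 on the B genome and 53 on the D genome. In the tissue check, Osa-miR1432 had a median of 141 RPM in the 24 flag leaves against 3.64 RPM in the 24 heads of the same plants. Bdi-miR319b had a median of 6.56 RPM in the flag leaves and 645 RPM in the heads, and the ranges of the flag leaves and heads did not overlap for Bdi-miR319b, Zma-miR319a, Zma-miR171d and Bdi-miR827-5p. These markers were picked from earlier results of the same libraries.

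A pair of libraries in each genotype stood apart from their group, so the counts of calls, and values that moved when a pair was left out, are also given without them. The libraries labelled Tjilkuri CG 1a and 2b held 5948 and 7091 RPM of Bdi-miR5200, a miRNA that acts on the flowering gene FT in the grass Brachypodium. The other 10 Tjilkuri flag leaves held 56.9 to 247 RPM and the 12 Yawa flag leaves 37.9 to 338 RPM. High values were not confined to this pair, as the flag leaves of EGA Bellaroi had a median of 804 RPM and reached 3837 RPM. Those of Tamaroi reached 216 RPM. The heads of the Tjilkuri pair, at 245 and 341 RPM, were also above the other 10 Tjilkuri heads, which ran from 5.45 to 21.7 RPM. Apart from Bdi-miR5200, 6 hairpins lay more than 1 log2 unit outside the range of the other 10 Tjilkuri flag leaves in both libraries, 5 above and 1 below it. In the hairpins, 3 of these 6 were also outside in the heads of these plants.

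The libraries Yawa WG 1a and 2c had 21 conserved miRNAs and 9 hairpins more than 1 log2 unit below the range of the other 10 Yawa flag leaves, and 0 above it. Gma-miR393h, of the family that acts on auxin receptors, stood at 0.739 and 0.599 RPM there against 20.4 to 77.2 RPM in the other 10. Osa-miR1432 stood at 12.4 and 5.84 RPM against 88.4 to 474 RPM. Hvu-miR5048a, a barley miRNA, stood at 167.5 and 72.5 RPM against 804 to 1739 RPM. The heads of these plants were low in Gma-miR393h as well, at 1.09 and 0.252 RPM, beside a median of 40.8 RPM in the other 10 Yawa heads, of which 1, WG 2b, was as low at 0.250 RPM. Only 4 of the 21 miRNAs and 0 of the 9 hairpins were below the range of the other 10 Yawa heads in both heads of this pair. The depth of these Yawa libraries, 6.77 M and 6.68 M reads, was within the range of the other 10, and their 110 miRNAs summed to 27778 and 13510 RPM. Both pairs were picked on these values, so counts without them describe the libraries that remain, and their p values are too small.

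The sequences of the conserved miRNAs on which the comparison turns are those of the nutrient families, of the GRF and SPL families, and of the miRNAs that set single libraries apart. They are printed as listed in the deposited table, 5′ to 3′ in DNA letters, with the seed, bases 2 to 8, in capitals.
Tae-miR395b: tGAAGTGTttgggggaactc
Zma-miR399c: tGCCAAAGgagaattgccctg
Gma-miR408d: tGCACTGCctcttccctggc
Bdi-miR396d: tTCCACAGctttcttgaactg
Osa-miR396g: tCCACAGGctttcttgaacgg
Gma-miR156k: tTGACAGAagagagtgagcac
Tae-miR156: tGACAGAAgagagtgagcaca
Ath-miR156b: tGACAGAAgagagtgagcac
Zma-miR166m: gGAATGTTggctggctcgagg
Zma-miR167j: gATCATGTggcagtttcatt
Zma-miR319a: tTGGACTGaagggtgctccc
Gma-miR393h: tTCCAAAGggatcgcattgatc
Bdi-miR5200: tGTAGATActctctaaggctt
Tae-miR156 and Ath-miR156b share their seed, while Gma-miR156k and the pair of miR396 sequences each have a seed of their own among those printed. Each of the 3 miR156 sequences has 5 near-identical listed sequences, so the alignment may have divided the reads of the family between them. Tae-miR395b, Zma-miR167j and Bdi-miR5200 have 0 near-identical listed sequences.

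The clearest differences between Yawa and Tjilkuri flag leaves were in candidate hairpins. With limma on the deposited log2 CPM, with treatment as a covariate and Benjamini-Hochberg adjustment over all hairpins, 3 passed an adjusted p of 0.05, which is 1.89% of those tested. Ttu pre-miR005 and Ttu pre-miR156 were higher in Yawa and Ttu pre-miR003 was lower. At an unadjusted p under 0.05 there were 24 hairpins (15.1%), 12 higher and 12 lower in Yawa. What these hairpins act on is not known from the files, and their mature sequences are not printed here. Their positions are those on the bread wheat chromosome survey sequence of the IWGSC, which the study used for want of a durum genome.

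Ttu pre-miR005 lies on a contig of the long arm of chromosome 1A (contig 3974610, bases 5735 to 5878). In Yawa its lowest, median and highest values were 2.65, 3.00 and 4.27 log2 CPM in the control group and 3.33, 3.89 and 5.40 log2 CPM under water deficit. In Tjilkuri the control libraries 1a and 2b had 4.80 and 4.05 log2 CPM, within the Yawa range, and the other 10 libraries ran from -4.20 to -2.58 log2 CPM. Of those 10, 9 stood at the lowest value of their library, the value of hairpins with few or no reads. All 12 Yawa libraries were thus above 10 of the 12 Tjilkuri libraries and overlapped with the pair that was already set apart by Bdi-miR5200. The fitted difference, Yawa minus Tjilkuri, was 5.67 (SE 0.81, limma adjusted p = 2.08e-05), and 6.99 (SE 0.32) without the pair. Ttu pre-miR005 was itself among the hairpins that set the pair apart, so the larger difference without it follows from that choice. Because most Tjilkuri libraries were at their floor, the size of this difference depends on that floor.

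The heads gave the same division of plants for Ttu pre-miR005. The 12 Yawa heads ran from 0.14 to 2.02 log2 CPM and the heads of Tjilkuri CG 1a and 2b had 0.82 and 1.46 log2 CPM. The other 10 Tjilkuri heads ran from -5.38 to -0.14 log2 CPM, where -0.14 was the lowest value of 1 shallow library. Among the other genotypes, the flag leaves of EGA Bellaroi, also sensitive, had a median of 3.32 log2 CPM and those of Tamaroi, also tolerant, 2.20 log2 CPM. In flag leaves, low values were therefore found in most Tjilkuri plants rather than in both sensitive genotypes. They were not confined to Tjilkuri, as 1 of 12 Tamaroi flag leaves was at its lowest value. In heads, 5 of 12 of Tamaroi (median -0.71 log2 CPM) and 1 of 12 of EGA Bellaroi (median 1.09 log2 CPM) were at theirs. In the flag leaf fit over 48 libraries, the Yawa minus Tjilkuri difference exceeded the Tamaroi minus EGA Bellaroi difference by 7.48 (SE 1.09, limma adjusted p = 1.98e-06).

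Ttu pre-miR003 lies on the same chromosome arm (1AL, contig 3926274, bases 2040 to 2265). Its values in Yawa ran from -3.21 to 0.64 log2 CPM with a median of -0.04, and in Tjilkuri from 0.84 to 2.28 log2 CPM with a median of 1.21. No Yawa library reached the lowest Tjilkuri library. It was the only hairpin (0.629% of those tested) whose 12 and 12 libraries did not overlap, and 0 of the 110 conserved miRNAs (0%) were so divided. The difference was -1.66 (SE 0.31, limma adjusted p = 0.00108), with -1.48 in the control group and -1.83 under water deficit. Without Yawa WG 1a and 2c it was -1.72, and without Tjilkuri CG 1a and 2b it was -1.57. The heads of these plants were not so divided. They ran from -3.02 to 0.08 log2 CPM in Yawa (median -0.66) and from -3.18 to 1.07 in Tjilkuri (median -0.52). In each genotype 3 of 12 heads were at the lowest value. The flag leaf medians of Tamaroi and EGA Bellaroi were 0.12 and 0.94 log2 CPM.

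Ttu pre-miR156, which carries its number in the list of hairpins and is not a miR156 precursor, lies on a contig of the short arm of chromosome 7D (contig 3847330, bases 207 to 381). Durum wheat has no D genome, so this is a position in the reference and not one in durum. The Yawa libraries ran from 3.43 to 4.35 log2 CPM and the Tjilkuri libraries from 2.73 to 3.75 log2 CPM, with medians of 3.72 and 3.24. The groups overlapped. The difference of 0.50 (SE 0.13) passed with a limma adjusted p of 0.0346, close to the threshold, and the call was easily lost. It did not pass with each library centred on its median (adjusted p = 0.127), with the spread of all 48 flag leaf libraries (0.224), with untrended variances (0.0684) or without Yawa WG 1a and 2c (0.0578). It was also lost, at an adjusted p of 0.0506 to 0.0688 and differences of 0.46 to 0.50, in 12 of the 24 fits that left out 1 library, namely Tjilkuri CG 1b and 1c and WG 1b and 2c, and Yawa CG 1a, 1b, 1c, 2a and 2c and WG 1a, 2b and 2c.

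**Figure D1:**
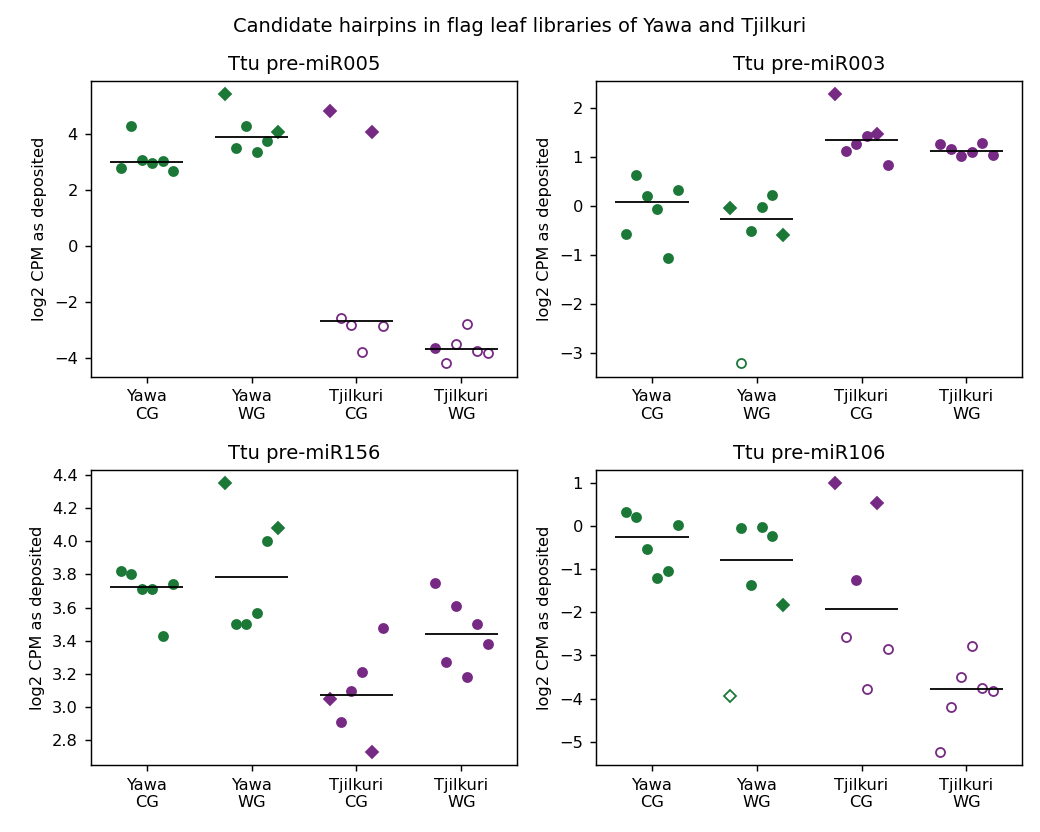
Deposited log2 CPM of 4 candidate hairpins in each of the 24 flag leaf libraries (points), by genotype and treatment (CG control, WG water deficit), with the group median as a line. Open symbols are at the lowest value of their library and diamonds are the libraries that stood apart (Yawa WG 1a and 2c, Tjilkuri CG 1a and 2b). In Ttu pre-miR005 the Tjilkuri diamonds sit among the Yawa libraries, and in Ttu pre-miR003 every Tjilkuri library is above every Yawa library.

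The next hairpins by p did not pass the test as first fitted, and several were present in part of the plants only. Ttu pre-miR106 (5AL, contig 2806065, bases 1012 to 1140) had a median of -0.37 log2 CPM in Yawa, with 1 of 12 libraries at its lowest value, and 9 of 12 Tjilkuri libraries at theirs. The Tjilkuri libraries above it were CG 1a (1.00), CG 2b (0.53) and CG 1c (-1.24). The difference was 1.89 (SE 0.53, limma adjusted p = 0.0541) over 24 libraries and 2.48 (adjusted p = 0.000533) without Tjilkuri CG 1a and 2b. Ttu pre-miR106 was among the hairpins whose high values set this pair apart, so leaving out either or both widened the difference by construction. Over all 24 libraries it passed with each library centred on its median (adjusted p = 0.0482) and with hairpins at the lowest value in more than 12 libraries left out (adjusted p = 0.0474). It also passed without the Yawa pair (2.17, adjusted p = 0.0236) and with 1 library left out, without Tjilkuri CG 1a (2.16), CG 2b (2.12) or WG 2a (1.96) and without Yawa CG 2b (1.99) or WG 1a (2.11).

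Ttu pre-miR115 (5BL, contig 10924917, bases 10800 to 10903) varied most among the Tjilkuri libraries, with an SD of 4.19 log2 units against a median SD of 0.78 over the hairpins. It was at 3.62 to 5.37 log2 CPM in 5 Tjilkuri flag leaves (CG 2a and 2c, WG 1c, 2b and 2c) and at the lowest value of the library in the other 7. In Yawa 10 of 12 libraries were at the lowest value and the highest library had -1.82 log2 CPM. High values were not confined to Tjilkuri. The flag leaves of Tamaroi reached 4.88 log2 CPM with 9 of 12 at the lowest value, and those of EGA Bellaroi 4.63 log2 CPM with 10 of 12. In the heads, 4 of the same 5 Tjilkuri plants had 1.07 to 2.64 log2 CPM and the other 8 heads were at the lowest value. Among the Tjilkuri plants, presence in a flag leaf and presence in the head thus went together, except for the head of WG 2c. That head held 0.61 M reads and had a lowest value of -0.14 log2 CPM, so absence there says little. The head of Tjilkuri CG 2a, at 1.07 log2 CPM, held 0.74 M reads, with a lowest value of -0.52 log2 CPM. Of the Yawa heads, CG 2a and WG 2a were above their lowest value, at -1.87 and -1.51 log2 CPM. The difference of -3.07 (SE 1.11, limma adjusted p = 0.194) did not pass, and without Tjilkuri CG 1a and 2b it was -3.71 (adjusted p = 0.0493).

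Ttu pre-miR090 (4AL, contig 7172205, bases 2512 to 2696) was at the lowest value in 11 of 12 Yawa libraries and in 5 of 12 Tjilkuri libraries, and reached 1.08 log2 CPM in Tjilkuri CG 1c. Its difference was -1.76 (SE 0.51, limma adjusted p = 0.0589), and -2.20 (adjusted p = 0.00225) without Tjilkuri CG 1a and 2b, both of which were at the lowest value. It also passed without Tjilkuri CG 2b (-2.09), WG 1b (-1.99) or WG 2a (-1.85). Ttu pre-miR049 (2BS, contig 5233801, bases 4866 to 4996) ran from 5.66 to 7.63 log2 CPM in Yawa and from 5.32 to 6.12 in Tjilkuri, a difference of 0.55 (SE 0.18, limma adjusted p = 0.141). Its highest values, 7.29 and 7.63, were in Yawa WG 1a and 2c, and without them the difference was 0.33 (SE 0.13). Ttu pre-miR125 (6BL, contig 2597709, bases 6894 to 6995) differed by -0.97 (SE 0.35, limma adjusted p = 0.194).

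**Figure D2:**
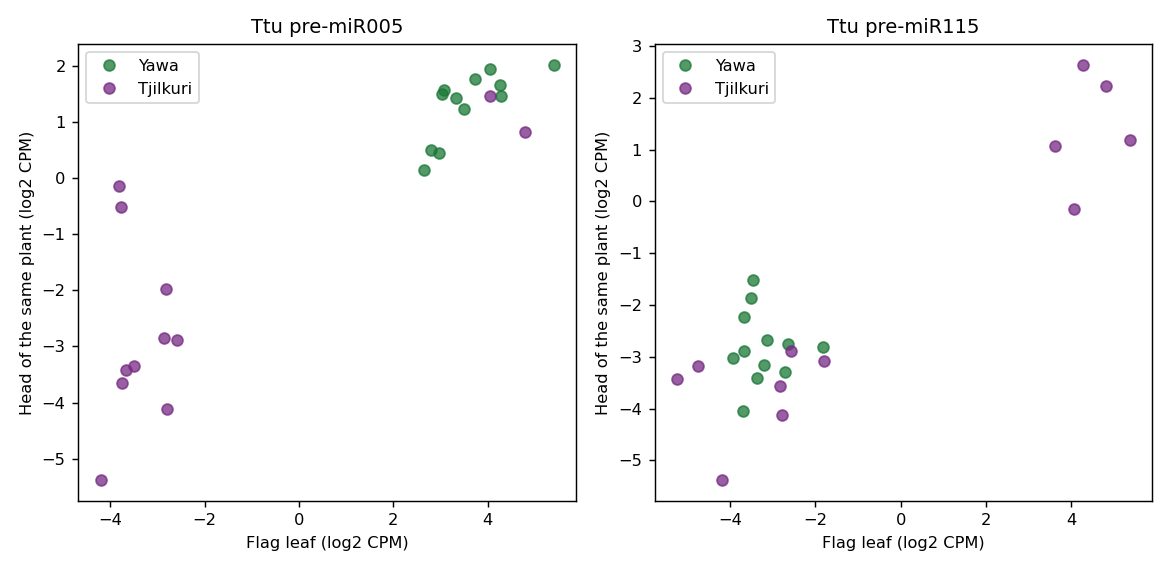
Deposited log2 CPM of Ttu pre-miR005 and Ttu pre-miR115 in the flag leaf (horizontal axis) and in the head of the same plant (vertical axis), 1 point for each of 24 plants. For Ttu pre-miR005 the 2 Tjilkuri plants with high flag leaf values (4.80 and 4.05) also have high heads, and for Ttu pre-miR115 the 5 Tjilkuri plants above 3 in the flag leaf include the 4 with heads above 1.

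By genome of the reference (A, B and D), the median differences of the hairpins were -0.10, -0.11 and -0.08, beside -0.09 over all hairpins. At an unadjusted p under 0.05 there were 3 higher and 4 lower in Yawa on A, 5 and 5 on B, and 4 and 3 on D.

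No conserved miRNA passed the adjusted threshold. The limma test on log2(RPM + 1) over the 24 libraries called 0 of 110 (0%), with 15 (13.6%) at an unadjusted p under 0.05, of which 2 were higher and 13 lower in Yawa. The median difference over the 110 was -0.11. After scaling the libraries by median ratios it was 0.03, with 5 higher and 10 lower, so the excess of lower miRNAs in Yawa shifted with the scaling. It also turned with the libraries used, to 22 higher and 12 lower (median 0.07) without Yawa WG 1a and 2c and to 22 higher and 15 lower without all 4 libraries that stood apart. The Yawa pair was picked on its low miRNAs, so this turn follows in part from that choice. The added 1 RPM makes differences too small for miRNAs of low RPM.

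Tae-miR395b, the sulfate miRNA, had the smallest p. In Yawa its lowest, median and highest values were 1.35, 5.18 and 147 RPM, and in Tjilkuri 12.6, 69.7 and 223 RPM. Of the 12 Yawa libraries, 8 were below the lowest Tjilkuri library, and CG 1b and 2c and WG 1a and 1b were within the Tjilkuri range. The difference was -2.31 on the log2 scale (SE 0.65, limma adjusted p = 0.146), with -2.41 in the control group and -2.22 under water deficit. It passed without Yawa CG 1b (-2.66, adjusted p = 0.0164), without Yawa WG 1b (-2.56, adjusted p = 0.0484) and without Yawa WG 1a and 2c (-2.44, adjusted p = 0.0272). In the heads the difference was -0.76, and the flag leaf minus head difference of -1.55 (SE 0.61, limma adjusted p = 0.393) did not pass.

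Gma-miR408d, which acts on copper proteins such as plantacyanin, differed in the other direction. It ran from 49.1 to 1002 RPM in Yawa with a median of 279 RPM, and from 8.50 to 569 RPM in Tjilkuri with a median of 54.7 RPM. In Tjilkuri 6 libraries were below the lowest Yawa library, 5 of them of season 1, and the others overlapped with Yawa. The difference was 1.91 (SE 0.70, limma adjusted p = 0.163), 3.27 (SE 0.66, adjusted p = 0.0265) in season 1 alone. In season 2 alone Gma-miR408d did not pass, and the genotypes overlapped, at 49.1 to 1002 RPM in Yawa and 8.50 to 569 RPM in Tjilkuri. Over the 7 listed miRNAs of the copper families, passenger strands included, 6 had positive differences, beside 38 of all 110, with a median of 0.53. Of the 7, 1 (Gma-miR408d) had an unadjusted p under 0.05. That median was 0.10 without Tjilkuri CG 1a and 2b, with 1 higher at that level, 0.98 without Yawa WG 1a and 2c, with 3 higher, and 0.45 without all 4 libraries, with 1.

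For the GRF family, all 5 listed sequences had negative differences, beside 72 of all 110 miRNAs. They ran from -0.94 to -0.28 with a median of -0.63, and 3 had an unadjusted p under 0.05, beside 13.6% of all miRNAs. After median-ratio scaling all 5 were still negative, with a median of -0.46 and 2 at that level. Without Yawa WG 1a and 2c, 4 of the 5 were negative (median -0.50, 3 at that level), and without all 4 libraries again 4 (median -0.42, 2 at that level). Bdi-miR396d ran from 33.6 to 176 RPM in Yawa, with a median of 111 RPM, and from 93.7 to 320 RPM in Tjilkuri, with a median of 174 RPM. Yawa CG 1a and WG 1a, 1b and 2c had 33.6 to 51.3 RPM, all below the Tjilkuri range, and the other 8 Yawa libraries overlapped with it. The difference was -0.94 (SE 0.30, limma adjusted p = 0.146), and -1.03 (adjusted p = 0.0473) without Tjilkuri CG 2b. Osa-miR396g had medians of 4.48 and 7.93 RPM and a difference of -0.88 (SE 0.31, limma adjusted p = 0.157), which was -0.56 (SE 0.26) without the Yawa pair and -0.51 (SE 0.28) without all 4 libraries.

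For the SPL family, 6 of the 7 listed sequences had negative differences, beside 72 of all 110 miRNAs. Their median was -0.52 with 3 at an unadjusted p under 0.05, beside 13.6% of all miRNAs. Gma-miR156k had lowest, median and highest values of 282, 777 and 2028 RPM in Yawa and 686, 1409 and 2527 RPM in Tjilkuri. Its difference of -0.82 (SE 0.26, limma adjusted p = 0.146) became -0.66 (SE 0.16, adjusted p = 0.0414) after median-ratio scaling, where it was the only miRNA that passed. It also passed without Tjilkuri CG 2b (-0.92, adjusted p = 0.0473) or Yawa CG 1b (-0.95, adjusted p = 0.0282). Ath-miR156b, at medians of 1150 and 1745 RPM, differed by -0.59 (SE 0.24, adjusted p = 0.216), and Tae-miR156, at 36.7 and 56.3 RPM, by -0.70 (SE 0.27, adjusted p = 0.202). Without Yawa WG 1a and 2c these differences were -0.64, -0.39 and -0.42, and the family median -0.36, with 1 of the 7 at an unadjusted p under 0.05.

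Among the remaining miRNAs of small p, Zma-miR167j, with the sequence of the passenger strand of a miR167 precursor, was higher in Yawa at 18.0 against 13.6 RPM in the median (0.51, SE 0.18, limma adjusted p = 0.157). Zma-miR166m had the sequence of a miR166 passenger strand and medians of 2.88 and 5.62 RPM (-0.76, SE 0.26, limma adjusted p = 0.157), and passed without Tjilkuri CG 2b (-0.88, adjusted p = 0.0473). Zma-miR319a, of the family that acts on TCP factors of leaf growth, had medians of 3.04 and 4.18 RPM (-0.56, SE 0.22, adjusted p = 0.208). Hvu-miR5049e and Osa-miR1436, families with repeat-like members in the Triticeae, differed by -0.56 (SE 0.20) and -0.35 (SE 0.14), with adjusted p of 0.163 and 0.226, and the former was -0.36 (SE 0.16) without the Yawa pair. None of these passed over the 24 libraries, and all have medians under 25 RPM.

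**Figure D3:**
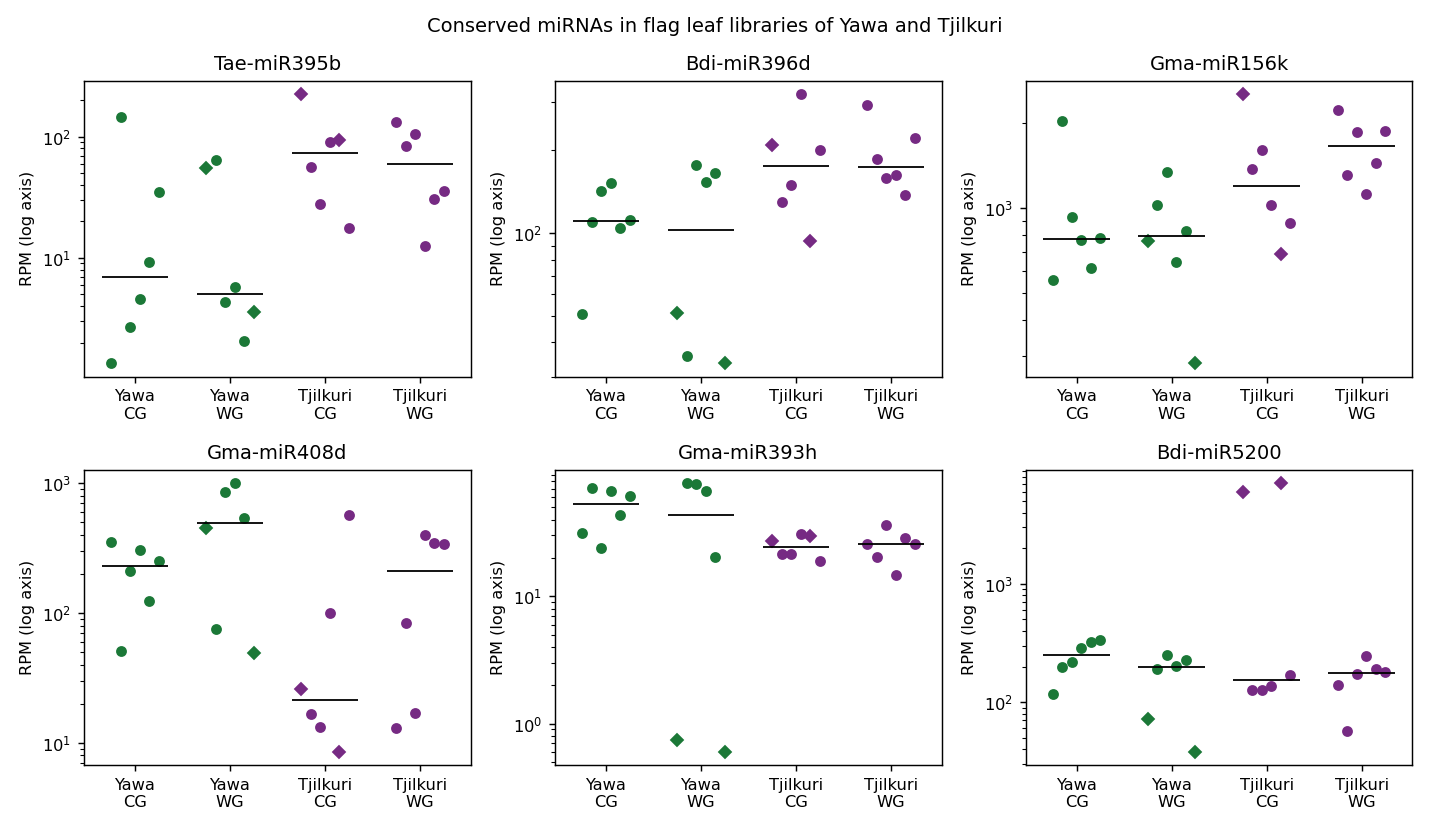
RPM (log axis) of 6 conserved miRNAs in each of the 24 flag leaf libraries (points), by genotype and treatment, with the group median as a line and diamonds for the libraries that stood apart. Tae-miR395b is mostly lower in Yawa, Gma-miR408d is scattered in Tjilkuri from 8.50 to 569 RPM, and single pairs of libraries leave their group in Gma-miR393h (Yawa WG) and Bdi-miR5200 (Tjilkuri CG).

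The other families moved with the libraries that stood apart or with the scaling, and few of their members had an unadjusted p under 0.05 over the 24 libraries, where the share over all miRNAs was 13.6%. Of the 14 listed sequences of the auxin pathway families (miR160, miR167, miR393), passenger strands included, 7 were above 0 and 7 below, with a median of 0.01 and 1 at that level. Without Yawa WG 1a and 2c their median was 0.37, with 8 of the 14 higher at that level, beside 22 higher of 110 over all miRNAs. Gma-miR393h, Osa-miR393b, Osa-miR167e and Ath-miR160a were among the low miRNAs that set that pair apart, so these values follow in part from that choice. The same holds below for Zma-miR399c, Zma-miR399e, Bdi-miR827-3p, Tae-miR1125, Hvu-miR6191, Bdi-miR168, Tae-miR164, Bdi-miR172a and Osa-miR444b, and for Bdi-miR5200 with the Tjilkuri pair. The 4 phosphate miRNAs had a median of 0.40 and 0 at that level, against 0.75 and 2 higher without the Yawa pair and 0.98 and 3 higher without all 4 libraries. The 15 miRNAs of miR165 and miR166 had a median of -0.17 with 1 at that level, and -0.09 with 2 without the Yawa pair. The 13 of miR159 and miR319 had a median of -0.12 with 1 lower, which was -0.40 with 5 lower without the Tjilkuri pair and 0.04 with 0 after median-ratio scaling. The 20 repeat-like miRNAs had a median of -0.10 with 2 at that level, which turned to 0.02 without the Yawa pair and also to 0.02 after scaling. The families of 1 or 2 listed sequences allow no more than their values. The family of AGO1-directed miR168 had 2 listed sequences, of which Bdi-miR168 has the sequence of a passenger strand. Their median was -0.38 with 1 at that level, and 0.01 with 0 without the Yawa pair. GRAS-directed miR171 (2 sequences) stayed between -0.18 and -0.16, with 1 at that level, in the fits without either pair or all 4 libraries, and was -0.01 with 0 after scaling. NAC-directed miR164 (2 sequences), AP2-directed miR172 and MADS-box-directed miR444 had -0.07, -0.13 and -0.19 with 0 at that level, and turned to 0.31, 0.40 and 0.40 without the Yawa pair, where miR444 had an unadjusted p under 0.05. Bdi-miR5200, at -0.64, turned to 0.24 without the Tjilkuri pair and to 0.62 without all 4 libraries, where its unadjusted p was under 0.05. Sequences of 18 or 19 nt, a sign of RNA fragments, summed to 45.8 to 315 RPM in Yawa and 82.8 to 219 RPM in Tjilkuri (two-sided permutation p = 0.63), and 0 of the 6 had an unadjusted p under 0.05.

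By the fold criteria of the study, a ratio of group means above 1.5 and at least 10 RPM in 1 group, 20 miRNAs differed in the control group (11 higher and 9 lower in Yawa) and 23 under water deficit (7 higher and 16 lower). In both treatments and in the same direction there were 6, or 5.45% of the 110, and 0 changed direction. Tae-miR395b was 2.54-fold and 2.96-fold higher in Tjilkuri in the control and stress groups, Bdi-miR396d 1.64-fold and 1.88-fold, and Tae-miR156 1.52-fold and 1.55-fold. Gma-miR408d was 1.77-fold and 2.49-fold higher in Yawa, Zma-miR399c 1.77-fold and 2.20-fold, and Gma-miR393h 2.00-fold and 1.60-fold. These ratios leave out the spread between plants, and none of the 6 passed limma over the 24 libraries. Left out singly, Yawa WG 2a took the number of such miRNAs to 3 and Yawa CG 1b took it to 10.

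Among the 6, Zma-miR399c and Gma-miR393h, besides Tae-miR395b, passed once the pair Yawa WG 1a and 2c was left out. Zma-miR399c and Gma-miR393h were among the miRNAs whose low values set that pair apart, so their rise without it follows from that choice. Zma-miR399c had medians of 13.0 RPM in Yawa and 5.75 RPM in Tjilkuri, but Yawa WG 1a and 2c had 1.62 and 0.300 RPM and Tjilkuri CG 2b 39.1 RPM. Its difference was 0.75 (SE 0.43, limma adjusted p = 0.406) over 24 libraries, 1.25 (SE 0.33, adjusted p = 0.0258) without the Yawa pair and 1.53 (SE 0.27, adjusted p = 0.00106) without both pairs. Gma-miR393h had medians of 52.6 and 25.8 RPM, and its difference of 0.16 (SE 0.55, adjusted p = 0.969) became 0.98 (SE 0.23, adjusted p = 0.0196) without the Yawa pair.

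**Figure D4:**
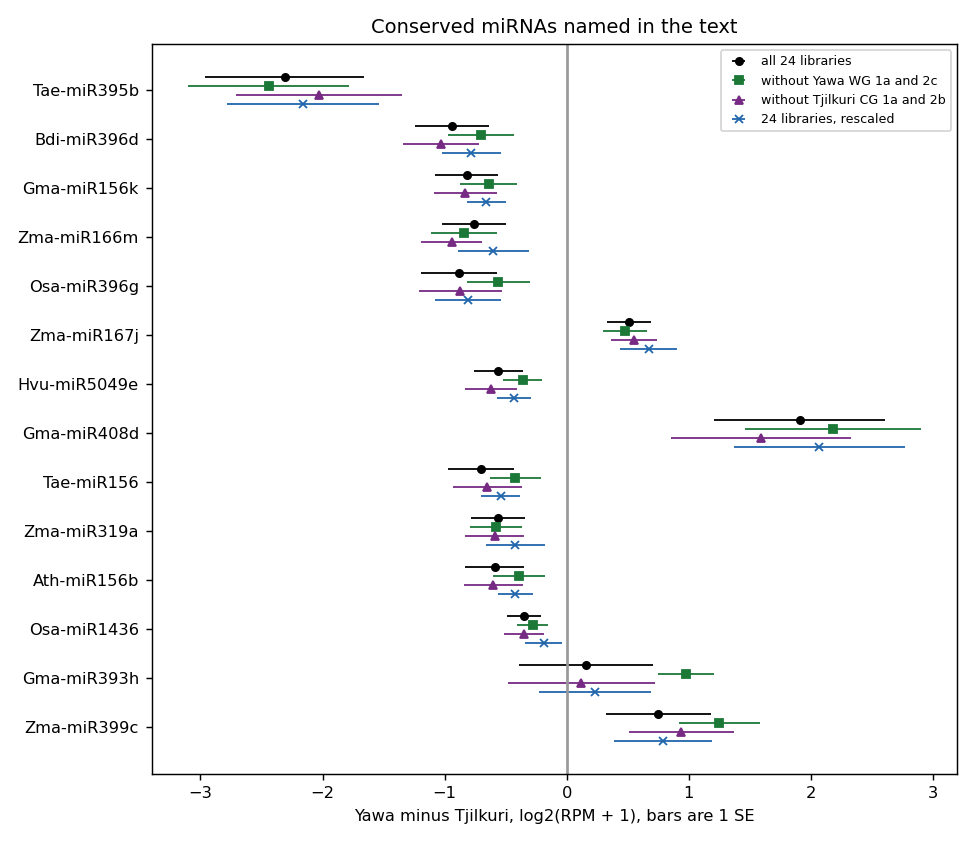
Yawa minus Tjilkuri difference on log2(RPM + 1) with 1 SE for the conserved miRNAs named by p or by the fold criteria, over 24 libraries, without Yawa WG 1a and 2c, without Tjilkuri CG 1a and 2b, and with rescaled libraries. Gma-miR393h and Zma-miR399c move most without the Yawa pair, from 0.16 to 0.98 and from 0.75 to 1.25, and the 12 miRNAs of smallest p keep their sign in each of these fits.

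In all, leaving out Yawa WG 1a and 2c raised the conserved calls from 0 to 7, of which 5 were higher in Yawa (Ath-miR160a, Bdi-miR393a, Gma-miR393h, Zma-miR399c and Osa-miR5071) and 2 lower (Bdi-miR166f and Tae-miR395b). Ath-miR160a, Gma-miR393h, Zma-miR399c and Osa-miR5071 were among the miRNAs whose low values set this pair apart. Leaving the pair out therefore raised them by construction. Leaving out Tjilkuri CG 1a and 2b left 0 conserved calls, with 20 at an unadjusted p under 0.05, and raised the hairpin calls from 3 to 9. Without all 4 libraries there were 17 conserved calls, 10 higher and 7 lower in Yawa, among them Sbi-miR1432 (1.22, SE 0.24) and Zma-miR159c (-0.90, SE 0.22), and 12 hairpin calls, 7 higher and 5 lower. Sbi-miR1432 was also among the low miRNAs that set the Yawa pair apart. Ttu pre-miR005, Ttu pre-miR003 and Ttu pre-miR106 were among the hairpins called in each of these fits. Of these, Ttu pre-miR005 and Ttu pre-miR106 were among the hairpins that set the Tjilkuri pair apart.

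Whether the genotypes differed in their response to water deficit was tested by the interaction of genotype and treatment. The limma test called 0 of 110 conserved miRNAs, with 4 at an unadjusted p under 0.05, and 0 of the hairpins, with 6. The smallest conserved p values were those of Zma-miR159a (-1.17, SE 0.45), Bdi-miR528 (-2.50, SE 1.11) and Bdi-miR168 (-1.64, SE 0.76), each with a limma adjusted p of 0.585. In each of them Yawa WG 1a and 2c were the lowest of the 12 Yawa libraries, for Bdi-miR168 at 1.18 and 0.300 RPM against 6.59 to 35.2 RPM. Without that pair the interactions were -0.68, -1.50 and -0.62. Among hairpins, Ttu pre-miR009 (1BL, contig 3326053, bases 348 to 1152) had -2.34 (SE 0.81), Ttu pre-miR113 (5BL, contig 10900336, bases 7280 to 7398) -0.99 (SE 0.35) and Ttu pre-miR005 4.01 (SE 1.45), each with an adjusted p of 0.528. For Ttu pre-miR113, Yawa WG 1a and 2c were again the lowest Yawa libraries, at 2.50 and 2.27 log2 CPM, and its interaction was -0.58 (SE 0.26) without them. That of Ttu pre-miR005 was 1.53 (SE 0.58) without Tjilkuri CG 1a and 2b, and that of Ttu pre-miR009 was -1.43 (SE 0.82) without all 4 libraries.

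**Figure D5:**
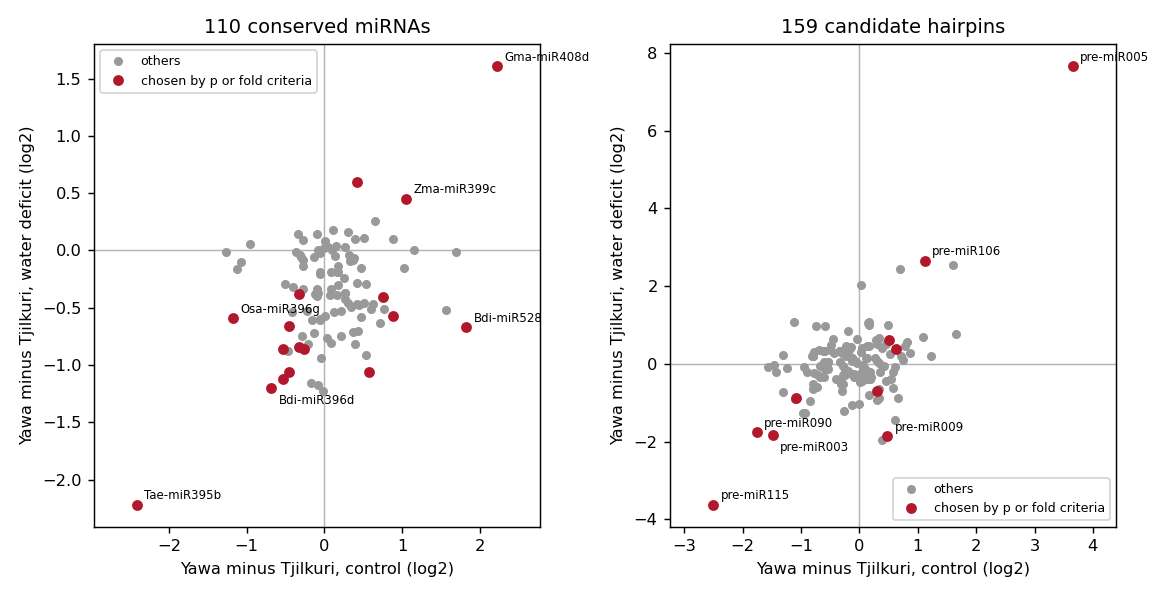
Yawa minus Tjilkuri difference (log2) in the control group (horizontal axis) and under water deficit (vertical axis) for the 110 conserved miRNAs and the candidate hairpins, 1 point each. Tae-miR395b (-2.41 and -2.22) and Gma-miR408d (2.22 and 1.61) lie far out among the miRNAs in both treatments, and Ttu pre-miR005 (3.66 and 7.67) among the hairpins.

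The genotype difference was set against that of the heads and of the other pair of genotypes. Between organs, limma called 0 of 110 conserved miRNAs, with 7 at an unadjusted p under 0.05. Zma-miR167j differed by 0.51 in flag leaf and -0.05 in head, with a limma adjusted p of 0.393 for the difference. Bdi-miR396d, at -0.94 in flag leaf and -1.05 in head, and Gma-miR408d, at 1.91 and 1.49, had like values in both organs of the same plants. Of the hairpins 1 was called, Ttu pre-miR009, with -0.69 in flag leaf and -4.46 in head (difference 3.77, SE 0.96, limma adjusted p = 0.043). Its heads stood at 4.97 to 5.79 log2 CPM in 10 of 12 Tjilkuri plants, all but CG 1a and 2b (-0.28 and -0.38), and in Yawa only CG 1b and 2b were that high.

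Against Tamaroi minus EGA Bellaroi, limma called 0 of 110 conserved miRNAs over the 48 flag leaf libraries, with 15 at an unadjusted p under 0.05. Gma-miR156k differed by -0.82 between Yawa and Tjilkuri and by 0.49 between Tamaroi and EGA Bellaroi (difference -1.31, SE 0.36, limma adjusted p = 0.0561). The same test passed 6 miRNAs after median-ratio scaling and 17 without Yawa WG 1a and 2c. Of the hairpins 4 were called, Ttu pre-miR005, Ttu pre-miR054, Ttu pre-miR056 and Ttu pre-miR154. Ttu pre-miR054 and Ttu pre-miR056 both lie on 2DL of the reference and had near-equal means over the 24 libraries (0.69 and 0.70 log2 CPM). They may not be separate signals.

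Summed over the 110 miRNAs, Yawa flag leaves held 30559 ± 7671 RPM (SD, n = 12) and Tjilkuri flag leaves 34343 ± 5637 RPM (SD, n = 12), with a two-sided permutation p of 0.187. The lowest and highest libraries were Yawa WG 2c at 13510 RPM and Tjilkuri CG 1a at 47973 RPM. Within the control group the difference in means was -2647 RPM (exact permutation p = 0.528) and under water deficit -4921 RPM (exact permutation p = 0.277). The totals overlapped in both treatments, and a share of 19.2% was Tae-miR159b.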

How the data were processed

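Flag leaf libraries of Yawa and Tjilkuri were grouped by genotype and treatment from the sample labels, and 0 columns of the tables were left without a library. For the conserved miRNAs the authors removed adaptors and poor reads, matched the rest to miRBase and deposited RPM, scaled to all small RNA reads of a library, so every RPM moves with the other small RNA classes. All 10451 values above 0 were whole multiples of 1 step per library (tolerance 0.01 reads), which gave the depths. For the hairpins the authors deposited log2 CPM of reads placed on the bread wheat survey sequence, normalised per hairpin, while how reads were counted and which total they were scaled to is not stated. The lowest value of a library was read as few or no reads.

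The test was limma 3.58.1 (R 4.3.3) with trended variances on log2(RPM + 1) or the deposited log2 CPM, with treatment as a covariate, Benjamini-Hochberg adjustment over all miRNAs or all hairpins and a threshold of 0.05. It was tested on simulated data. Totals used 100000 permutations, or all regroupings for 6 against 6. Named were the 12 miRNAs and 8 hairpins of smallest p, the 6 of the fold criteria (a mean of 0 set to 0.01) and the 3 of smallest p in each interaction. Other names were chosen after their values were seen, as were the tests of hairpins against the head and against the other genotypes. The members, gene lists and tests were chosen with earlier results of these data known. Families were grouped by the number in the miRNA name. They therefore also hold sequences of passenger strands, such as Osa-miR393b, Osa-miR167e, Sbi-miR397, Bdi-miR528 and Bdi-miR168, which need not act on the targets of the family. Alternatives were season, block, spread, pseudocount, filter, scaling and libraries left out. Heads and other genotypes entered only where named. The quantitative PCR was not analysed here.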

Additional observations from a re-analysis of the deposited data

Results flagged for a closer look

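Of 112 sets of 6 libraries examined (each named miRNA and hairpin and the summed RPM in each of 4 groups, on the log2 scale), 9 (8.04%) had 1 library far from its nearest neighbour by Dixon's ratio at its 95% level, where chance flags about 1 in 20. The summed RPM was low in Yawa WG 2c, at 13510 RPM against 27778 to 39912 RPM, and high in Tjilkuri CG 1a, at 47973 RPM against 28239 to 33399 RPM. Bdi-miR396d was low in Yawa CG 1a (50.9 RPM against 105 to 153), Zma-miR399c was high in Tjilkuri CG 2b (39.1 RPM against 3.13 to 7.77), and Hvu-miR5049e was low in Tjilkuri WG 1b (4.69 RPM against 10.5 to 13.6). Ttu pre-miR005 was high in Yawa CG 1b (4.27 log2 CPM against 2.65 to 3.07) and Ttu pre-miR156 low in Yawa CG 2b (3.43 against 3.71 to 3.82). Ttu pre-miR003 was at the lowest value in Yawa WG 1b (-3.21 log2 CPM against -0.60 to 0.23), and Ttu pre-miR115 stood above the others in Yawa WG 2c (-1.82 against -3.94 to -3.21).

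Hairpins whose genotype difference departed from that in the heads or in the other genotypes by a limma test of the difference itself were also set aside. Ttu pre-miR009 differed from its head contrast by 3.77. Against the Tamaroi minus EGA Bellaroi difference in flag leaf, Ttu pre-miR005 departed by 7.48, Ttu pre-miR154 by 2.06, Ttu pre-miR054 by -4.38 and Ttu pre-miR056 by -4.26. The explanations of these values were not tested.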

How the results depend on the processing

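Season as a covariate changed neither the conserved count of 0 nor the 3 hairpin calls, and the same held for the replicate block, which gave 0 conserved calls, 3 hairpin calls and 0 for either interaction. Whether Yawa and Tjilkuri libraries of the same season and letter share more than that label is not stated. Their deviations from the group means correlated at -0.421 to 0.344 over the conserved miRNAs (5 of 12 pairs over 0.1). Over the hairpins the correlations were -0.201 to 0.065. The best correlation was with the own number in 1 of 12 conserved and 0 of 12 hairpin pairs. These correlations alone cannot decide the question. Conserved calls were 1 in season 1 alone and 1 after median-ratio scaling, 7 without Yawa WG 1a and 2c and 17 without all 4 libraries that stood apart, which was added after seeing the data. Leaving out 1 library gave 0 to 4, the highest without Tjilkuri CG 2b, with 2 without Yawa CG 1b and 1 without Yawa WG 1b. Hairpin calls were 1 in season 1 and 1 in season 2 alone, each with 12 libraries, 9 without Tjilkuri CG 1a and 2b and 12 without all 4, and 2 to 7 with 1 library left out, 7 without Tjilkuri CG 2b and 5 without Tjilkuri WG 2a. Interaction calls ranged from 0 to 0 in both tables. The fold criteria in both treatments gave 1 miRNA at a threshold of 2, 11 with group medians, 10 in season 1, 10 without all 4 libraries and 3 to 10 with 1 library left out. The difference in summed RPM ran from -4866 to -2234 RPM, with the smallest permutation p at 0.0787. The test against Tamaroi minus EGA Bellaroi, 0 as reported, gave 6 calls with median-ratio scaling, 4 with season as a covariate, 17 without Yawa WG 1a and 2c, 6 without Tjilkuri CG 1a and 2b and 21 without all 4. Of 1020 values of named miRNAs and hairpins under these settings, 965 kept their direction and side of the threshold, 21 lost and 31 gained the call, and 3 turned, all of Gma-miR393h (0 with a pseudocount of 0.1 RPM, and -0.02 without Yawa WG 1b or 1c, in a range of -0.02 to 0.52 with 1 library left out). The cause of these changes was not tested. The planned count tests on whole reads were not run. In libraries of low depth, a miRNA of a few RPM rests on few reads.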
